A study of Mus musculus with 4 samples.

Results

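Gene expression at rest was compared between mouse peritoneal macrophages labelled Dap12-KO and wild type macrophages, both cultured without a cytokine. The members of this comparison are the genes of 2 of the 4 arrays of the study. For each gene the log2 value on the untreated wild type array was subtracted from the value on its Dap12-KO counterpart. Of 18193 genes named on the array, 12767 reached a level floor of 6.39 (the median of all values) on at least 1 array and entered the comparison. The cells were harvested from mice given thioglycolate, which irritates the peritoneum and recruits these cells, and spent 18 hours on permanox slides. The groups, as titled, were wild type (WT) and Dap12-KO, each untreated and with IL-4, the cytokine of alternative macrophage activation and giant cell formation. Each group was measured on 1 array, and no count of mice, no pooling and no strain, age or sex of the mice is given in the sources used here. With 1 array a side there is no replicate spread, so every difference is a value with no test. A gene is called higher or lower here when the difference reached 2-fold (1 log2 unit). Each gene is read by its brightest probe set. Where the median over all its probe sets loses the 2-fold call or lies over 1.5-fold away, that probe set median is given too.

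DAP12 is a small membrane adaptor encoded by Tyrobp. It has almost no outer part of its own and pairs with receptors such as TREM2, CLEC5A and SIRP-beta. When these are engaged, Src family kinases phosphorylate the tyrosines of its ITAM motif, the kinase Syk docks there, and calcium, PI3K and ERK signalling follow. In macrophages and osteoclasts DAP12 is best known for its part in survival signals beside the CSF1 receptor and in the fusion of cells into multinucleated giant cells.

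Tyrobp itself was bright on every array. Its only probe set read 14.39 on the untreated wild type array, 14.13 on the wild type IL-4 array and, under the Dap12-KO label, 14.03 untreated and 13.27 with IL-4. The signal therefore does not bear out the label. The position of the probe set relative to the deletion is not given in the sources used here, and outside the deletion it would be no check. Directions below follow the labels alone.

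The labelled cell type was borne out on both untreated arrays, where all 8 macrophage markers lay above the floor and their summed linear signal differed by a ratio of 1.11. The untreated arrays had similar distributions, with interquartile ranges of 3.25 and 3.19 log2 units, and correlated at r = 0.981 over all probe sets. The IL-4 array labelled Dap12-KO was narrower, at 2.54, which bears most directly on the repeat of the comparison under IL-4 given last. It also bears on the untreated comparison, since the floor, the choice of probe set and the entry of genes use all arrays. With probe sets chosen on the untreated arrays alone, 406 genes were 2-fold higher and 437 lower, against 398 and 435 here.

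Most genes differed little between the untreated arrays. The median difference was 0.03, the SD over genes was 0.55, and 80.2% of genes lay within 1.5-fold. By comparison, the SD over genes of the difference between both wild type arrays, with and without IL-4, was 0.37. On the array labelled Dap12-KO, 398 genes were higher (3.12% of those tested) and 435 were lower (3.41%). These 2 percentages are the background against which each gene list below is read. The lower side reached further: 80 genes were lower by 4-fold or more against 28 higher, and 15 by 8-fold or more against 4. The median levels in wild type and on the array labelled Dap12-KO were 10.14 and 8.48 for the lower genes and 8.18 and 9.69 for the higher genes, against a wild type median of 8.73 for all genes tested. These levels enter the call itself and are given as a description. Of the lower genes 50 lay under the floor on the array labelled Dap12-KO, and of the higher genes 39 lay under it in wild type, so the sizes of those differences rest partly on background readings.

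**Figure D1:**
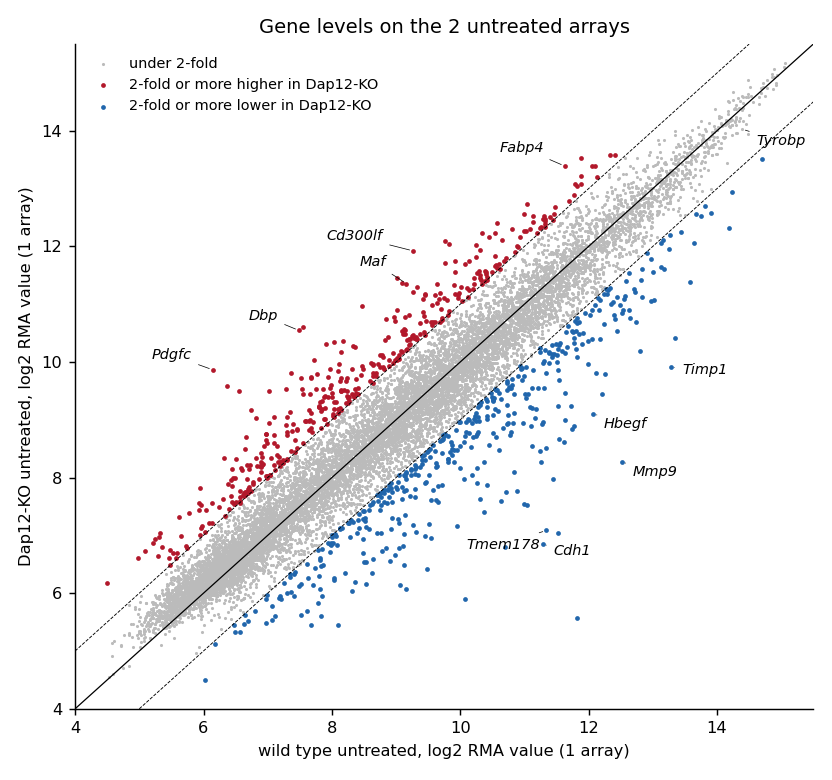
Log2 RMA value of each of the 12767 genes on the untreated wild type array (horizontal) and the untreated array labelled Dap12-KO (vertical), 1 array each. Red marks the 398 genes at 2-fold or more higher, blue the 435 lower, the solid line equality and the dashed lines 2-fold; Mmp9 and Cdh1 lie far below the line, Pdgfc far above it, and Tyrobp next to it at the bright end.

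The receptors that signal through DAP12 were split. Of 15 genes tested for DAP12, the related adaptor DAP10 and their partner receptors, 3 were lower and 1 was higher, with a median of −0.45. Clec5a, a C-type lectin-like receptor that needs DAP12, read 11.52 in wild type and 9.23 on the array labelled Dap12-KO. Pilrb1, an activating paired receptor, read 11.03 and 9.37, and Treml4 read 7.80 and 6.30, below the floor. Sirpb1a, an activating SIRP receptor, was on the other side at 9.32 and 10.40. Trem2 differed by 0.30 and Hcst, which encodes DAP10 and lies next to Tyrobp in the genome, by −0.45. Pilra, the inhibitory counterpart of Pilrb1, lay further apart than any partner receptor of the list, at 11.73 in wild type and 8.84 on the array labelled Dap12-KO, a 7.41-fold difference.

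Further down the same route, Syk and most of its partners were nearly level, while Dok2 and Src were lower. Among 25 ITAM kinases and adaptors the median was 0.02, with 2 lower and 1 higher. Syk differed by −0.11, the phospholipase Plcg2 by 0.21 and the kinase Btk by 0.07. Dok2, an adaptor that restrains Ras signalling, read 11.58 and 10.20. The kinase gene Src itself read 8.02 and 6.86, with a probe set median of −0.82. The PI3K catalytic subunit gene Pik3cd differed by 1.11 on its brightest probe set, but by −0.16 by the median over its probe sets, so its direction is not settled. Another PI3K catalytic subunit, Pik3cb, differed by −1.63 on its single probe set, and the regulatory subunit Pik3r5 by 1.22. These 3 were the only genes past 2-fold among 25 of the PI3K, AKT and mTOR pathway.

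ERK signalling is known to switch on genes that feed back on it. Of 22 genes in the list of colony-stimulating factor receptors, Csf1 and MAPK feedback genes, 9 were lower and 1 higher, and the median was −0.73. The ERK phosphatase gene Dusp6 read 10.30 in wild type and 7.64 on the array labelled Dap12-KO, a 6.34-fold difference. Its relatives Dusp4 and Dusp5 read 11.28 against 8.93 and 9.65 against 7.58. The Sprouty gene Spry2, a feedback inhibitor of receptor tyrosine kinases, differed by −2.05, and by −1.21 by the median over its probe sets. Spred1, of the same family of Ras-ERK inhibitors, differed by −1.42. For Spred2 the value was −1.40 on the brightest probe set and −0.08 by the median over probe sets. The remaining 3 were Phlda1 (11.26 against 8.27), the proto-oncogene Myc (−1.37) and the ETS factor Etv5 (−1.31, probe set median −0.48). The receptors stood apart from this: Csf1r, the CSF1 receptor, differed by 0.21 and Csf1, its ligand, by −0.71. Csf3r, the receptor for granulocyte colony-stimulating factor, was the 1 higher gene, at 9.68 and 11.20.

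Of 23 AP-1, EGR and other immediate early factor genes, 4 were lower and 2 higher, with a median of −0.35. Fosl1, a Fos-type AP-1 subunit, read 9.55 and 6.96, or a difference of −1.59 by the median over its probe sets against −2.59 on the brightest. The small Maf gene Maff read 10.18 and 8.04, Fosl2 differed by −1.36 (probe set median −0.90) and Egr2 by −1.11. Fos and Jun, the founding members, differed by −0.13 and 0.57. On the higher side were Klf2, a factor known from quiescent leukocytes, at 8.22 and 9.68, and Egr3 at 8.25 and 9.38 (probe set median 0.60).

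Matrix proteases and their inhibitors had a larger share of lower genes than any other list of 10 or more genes examined, 8 of 15 with 0 higher, and a median of −1.32. The gelatinase gene Mmp9 read 12.52 in wild type and 8.27 on the array labelled Dap12-KO, and its 2 probe sets differed by −4.24 and −4.09. Timp1, the secreted inhibitor of metalloproteinases, read 13.28 and 9.91. Mmp19 read 9.54 and 7.62, the collagenase gene Mmp13 read 12.97 and 11.06, and the stromelysin gene Mmp10 read 7.81 and 6.07, below the floor. The plasminogen activation genes of the list lay on the same side. The urokinase gene Plau read 8.75 and 7.44, its receptor Plaur 13.13 and 11.64, and Serpinb2, the inhibitor of urokinase, 12.45 and 10.54. The other members were closer, with the macrophage elastase Mmp12 at −0.34 and Timp2 at 0.30.

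The upstream sequences of several of these genes are shown because they hold a match to the AP-1 motif, the site bound by the Fos and Jun type factors described above. Sequences are the 250 bases before the annotated start from RefSeq (GRCm38.p6), written 5′ to 3′ on the strand of the gene, with capitals marking TGANTCA, searched on both strands. Mmp13 (chr9:7272264-7272513, plus strand), Mmp10 (chr9:7502092-7502341, plus strand), Plaur (chr7:24462233-24462482, plus strand) and the tissue factor gene F3 (chr3:121723287-121723536, plus strand) were lower, and C3ar1 (chr6:122856158-122856407, minus strand), a complement receptor gene that was higher, is shown beside them.
Mmp13: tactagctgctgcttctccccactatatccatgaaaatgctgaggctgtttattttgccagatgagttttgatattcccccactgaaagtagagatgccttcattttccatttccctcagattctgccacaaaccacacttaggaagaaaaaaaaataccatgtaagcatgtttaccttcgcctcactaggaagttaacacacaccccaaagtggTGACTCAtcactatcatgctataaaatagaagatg
Mmp10: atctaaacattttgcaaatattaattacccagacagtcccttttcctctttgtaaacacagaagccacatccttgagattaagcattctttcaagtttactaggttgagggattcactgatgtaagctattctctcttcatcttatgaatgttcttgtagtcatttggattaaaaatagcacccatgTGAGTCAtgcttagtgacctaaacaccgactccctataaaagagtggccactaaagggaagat
Plaur: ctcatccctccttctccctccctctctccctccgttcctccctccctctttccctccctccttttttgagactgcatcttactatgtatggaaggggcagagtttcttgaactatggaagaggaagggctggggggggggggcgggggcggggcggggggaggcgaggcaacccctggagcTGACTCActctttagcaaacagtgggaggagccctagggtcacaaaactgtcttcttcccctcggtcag
F3: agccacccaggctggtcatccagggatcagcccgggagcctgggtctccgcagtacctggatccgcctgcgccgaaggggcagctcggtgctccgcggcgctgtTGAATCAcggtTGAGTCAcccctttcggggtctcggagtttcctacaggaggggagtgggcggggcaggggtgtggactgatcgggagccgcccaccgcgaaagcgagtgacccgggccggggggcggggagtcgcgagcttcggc
C3ar1: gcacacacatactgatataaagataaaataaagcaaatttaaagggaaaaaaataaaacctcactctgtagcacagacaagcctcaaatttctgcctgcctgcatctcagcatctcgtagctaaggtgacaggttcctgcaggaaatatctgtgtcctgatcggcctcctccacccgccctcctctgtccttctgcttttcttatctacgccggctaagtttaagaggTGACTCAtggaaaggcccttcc
The match began 35 bases before the start in Mmp13, 63 in Mmp10 and 69 in Plaur, at 146 and 135 in F3, and at 22 in C3ar1. Of the 8 lower genes of the protease list 5 had a promoter in the table, and 4 of those held a match (Mmp10, Mmp13, Plaur and Serpinb2). That count is by gene, with a match in any of its promoters, and cannot be set directly against the shares that follow, which are by promoter. Over all genes tested 4.89% of 13160 promoters held one, against 9.17% of the promoters of lower genes and 8.15% of those of higher genes, so the share was above that of all promoters on both sides. Of 4 other motifs, CACGTG (E-box) stood in 8.01% of all promoters, 10.9% of those of lower and 8.63% of those of higher genes. GTAAACA (FOXO) stood in 2.34%, 1.92% and 3.12%, and TGCTGAN (MAF) in 13.3%, 16.0% and 16.8%, in the same order. TTATGNAA (D-box, the site of Dbp-type factors) stood in 1.87% of all promoters, 1.92% of those of lower and 1.2% of those of higher genes. A match describes the letters of this window and shows no binding.

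Of 22 fusion and osteoclast genes, 5 were lower and 0 higher, with a median of −0.30. Cdh1, which encodes E-cadherin, read 11.28 and 6.85, a 21.6-fold difference and one of the lowest of all genes. The fusion receptors Dcstamp and Ocstamp, which are required for multinucleation, read 12.21 against 9.45 and 11.45 against 7.98. Itgb3, the beta chain of the vitronectin receptor, read 10.37 and 7.40, a difference of −2.97, or −1.91 by the median over its probe sets. Mmp9, given above, was the fifth of these genes. Surface genes of the list that did not pass included Cd47 (−0.05, probe set median 0.33), Cd44 (−0.32), Cd9 (−0.27) and Sirpa (0.68). Nfatc1, the master factor of osteoclasts, differed by 0.35 (probe set median −0.32), the proton pump subunit Atp6v0d2 by 0.49, and Ctsk and Acp5, which encode cathepsin K and the tartrate-resistant phosphatase, by −0.20 and −0.19.

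Other adhesion genes showed single large differences in lists that were level in the middle. Pcdh7, a protocadherin, read 10.08 in wild type and 5.91 on the array labelled Dap12-KO, below the floor. Its 3 probe sets differed by between −4.17 and −0.12, with a median of −1.38. Among 16 integrin genes 3 were lower and 1 higher, with a median of −0.15. Itgax, which encodes CD11c, read 13.01 and 11.08, Itgb8 lay below the floor on both untreated arrays, and Itgb5 read 11.46 and 12.55. The podosome and actin list held 1 lower and 1 higher gene of 28. These were Zyx, which encodes zyxin, at −1.29 (probe set median −0.99), and Iqgap2, a scaffold of Rac and Cdc42 signalling, at 8.46 in wild type and 10.97 on the array labelled Dap12-KO. Tpm2, a tropomyosin gene, read 11.62 and 8.62, a 7.98-fold difference. The Cas-type scaffold gene Cass4 read 10.71 and 7.75.

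Of 19 growth factor genes 6 were lower and 4 higher, and the median was −0.09. Lower were Hbegf, an EGF receptor ligand, at 12.07 and 9.10, the vascular growth factor Vegfa at 11.16 and 9.03, and Pdgfb at 11.08 and 9.22. Endothelin 1 (Edn1) differed by −2.04 and Tgfb1 by −1.40. The activin chain Inhba differed by −2.57 on its brightest probe set and by 0.51 on the other, with a median of −1.03. Higher were Pdgfc, with 6.14 in wild type (below the floor) and 9.86 on the array labelled Dap12-KO, and Tgfb2, with 6.56 and 9.50. Bmp2 (1.35) and Hgf (1.06, probe set median 0.60) were the other two. Within the PDGF and TGF-beta families, Pdgfb and Tgfb1 were thus lower while Pdgfc and Tgfb2 were higher. The 3 Tgfb2 probe sets above the floor differed by between 2.53 and 2.99.

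In the coagulation system genes differed in both directions. F3, which encodes tissue factor, the starter of coagulation, read 11.64 and 9.0, and Procr, the protein C receptor, 12.64 and 10.76. Thbd, which encodes the anticoagulant thrombomodulin, read 7.80 and 9.24, and factor V (F5) 8.37 and 9.70. Gas6, the ligand of the TAM receptors, differed by 1.46 on its brightest probe set and by 0.62 by the median over probe sets. Counting Plau and Plaur from above, 4 of 13 genes were lower and 3 higher.

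All 11 CC chemokine genes tested were negative, where 52.6% of all genes tested were positive. Of these 11, 5 were lower by 2-fold, and the median was −0.85. Ccl4 and Ccl3 read 11.11 against 9.20 and 12.41 against 10.74, and Ccl22 read 10.50 against 8.77. Ccl8 differed by −1.48 and Ccl9 by −1.20. Ccl6 (−0.02) and Ccl7 (−0.09) were level, and Ccl6 was among the brightest genes of both arrays at 14.14 and 14.12. Of 11 CXC chemokine genes 3 were lower. Cxcl3, a neutrophil attractant, read 11.04 and 7.53, Cxcl14 read 11.00 and 7.55, and Ppbp read 7.60 and 5.70, below the floor. Cxcl13, a B cell attractant made by cavity macrophages, was the 1 higher, at 11.32 and 12.34.

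Among 15 cytokine genes 4 were lower and 2 higher. Il1a, Il1b and the receptor antagonist Il1rn differed by −1.46, −1.22 and −1.57, and Tnf by −1.13. The accessory chain Il1rap and the receptor Il1rl2 were lower as well, by −1.05 and −1.34 on the brightest probe sets and −0.51 and −0.52 by the median over probe sets. Il15 differed by 1.06, and Il16 by 1.22 or 0.17 by that median. NF-kB genes followed the negative side in 4 of 18, which were the inhibitors Nfkbid (−1.66), Nfkbie (−1.12) and Tnfaip3 (−1.05, probe set median −0.78) and the subunit Rel (−1.10), with a median of −0.25. By contrast 0 of 20 Toll-like receptor genes and partners passed 2-fold, their median was 0.08, and Tlr4 differed by −0.09. Of 33 interferon-stimulated genes 30 were negative, where 52.6% of all genes tested were positive. Only Ifit1 (−1.08) and Oasl1 (−1.05) reached 2-fold, and the median was −0.24.

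Of 23 chemokine and inflammatory G protein-coupled receptors 5 were lower and 3 higher. Gpr84, a receptor for medium-chain fatty acids, read 12.25 and 9.79, the niacin receptor Hcar2 9.26 and 7.18, and the formyl peptide receptor Fpr2 10.26 and 8.75. Gpr35 (−1.35) and the chemokine receptor Ccr1 (−1.32) completed the lower ones. The 3 higher were Cxcr4, the receptor of CXCL12, at 8.04 and 10.35, the UDP-glucose receptor P2ry14 at 7.93 and 9.75, and C3ar1 at 12.40 and 13.57 (probe set median 0.98). Eicosanoid genes were also on both sides, with 6 of 18 higher and 2 lower. The inducible cyclooxygenase Ptgs2 read 7.68 and 5.45, below the floor (probe set median −1.11), and the prostacyclin receptor Ptgir differed by −1.36. Higher were the prostaglandin D synthase Hpgds at 7.68 and 9.72, the phospholipase Pla2g15 (1.57), the prostaglandin E2 receptor Ptger2 (1.56), the prostaglandin-degrading enzyme Hpgd (1.44 from below the floor, probe set median 0.80), the lipoxygenase Alox15 (1.39) and the leukotriene C4 synthase Ltc4s (1.37).

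Of 29 amino acid transporters and targets of the stress factor ATF4, 10 were lower and 1 higher, with a median of −0.53. The cystine importer Slc7a11 read 10.42 in wild type and 7.88 on the array labelled Dap12-KO. The large neutral amino acid transporter Slc7a5 read 9.62 and 7.61, and the glutamine transporter Slc1a5 11.31 and 9.55. The serine synthesis enzyme Psat1 read 12.73 and 10.68, asparagine synthetase (Asns) 12.18 and 10.40, and the mitochondrial folate enzyme Mthfd2 differed by −1.26. The cationic amino acid transporters Slc7a1 and Slc7a2, which carry arginine, differed by −1.33 and −1.20, the latter by −1.97 by the median over probe sets. Slc36a1, a lysosomal amino acid transporter, was on the other side at 9.13 and 10.55. The gene of ATF4 itself differed by −0.20.

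Of 19 NRF2 targets, haem and metallothionein genes 6 were lower and 0 higher, with a median of −0.49. Metallothionein 2 (Mt2) read 11.98 and 9.96, sulfiredoxin (Srxn1) 13.26 and 11.95, and thioredoxin reductase (Txnrd1) 13.81 and 12.70 (probe set median −0.98). Gclm, of glutathione synthesis, differed by −1.07. The zinc importer Slc39a14 differed by −1.85 on its brightest probe set and −0.54 by the median over probe sets, and Slc7a11 was given above. Of 23 heat shock and chaperone genes 3 were lower, Hsph1 (12.83 against 11.12), Hspa1b (9.88 against 8.39) and Dnajb4 (−1.29, probe set median −0.93), with a median of −0.42. Proteasome subunits showed small differences in one direction. Of 30 subunits 29 were negative, where 52.6% of all genes tested were positive. No subunit passed 2-fold, and the median was −0.34. Glucose uptake and hypoxia genes were not lower as a list (median 0.01 over 33), although the glucose transporter Slc2a1 read 12.73 and 11.20.

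**Figure D2:**
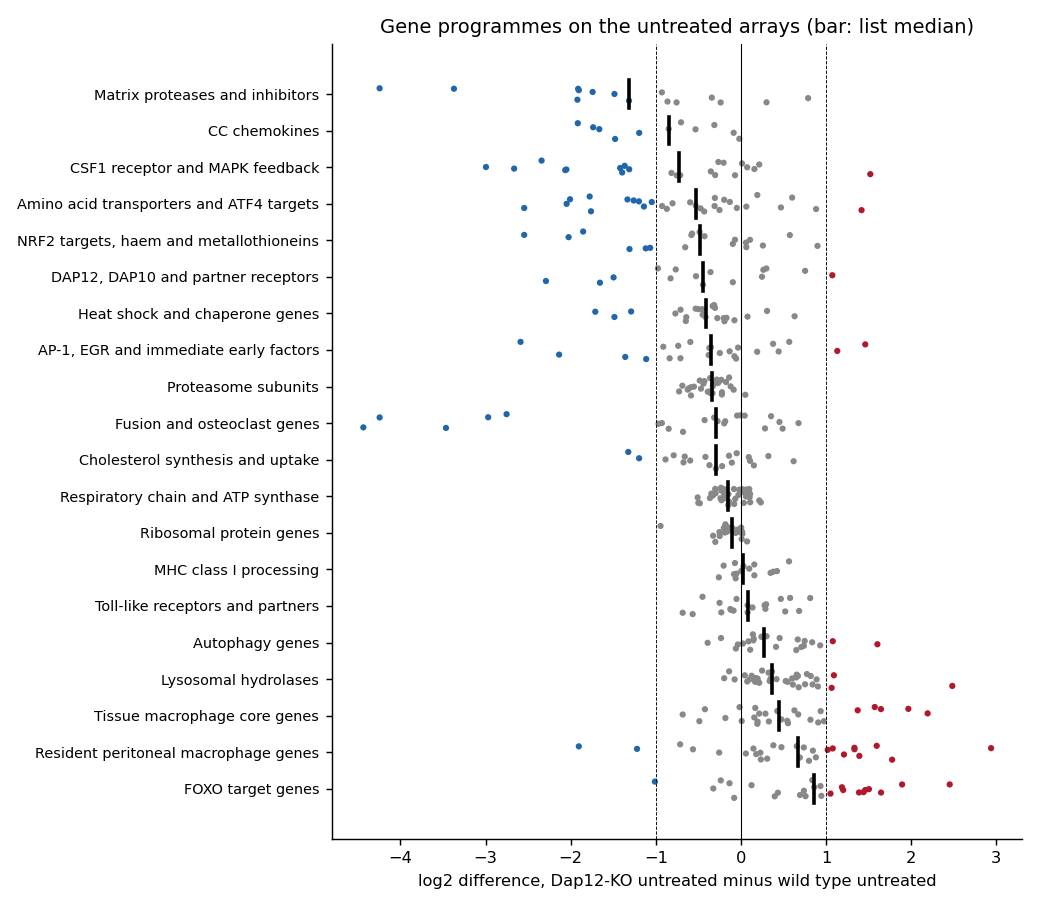
Log2 difference of each member of selected gene lists (untreated array labelled Dap12-KO minus untreated wild type array, horizontal), with lists ordered by their median (black bar). Red and blue points are at 2-fold or more higher or lower and dashed lines mark 2-fold; matrix proteases have the lowest median, −1.32, and FOXO target genes the highest, 0.86.

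FOXO target genes were higher in a larger number than any other list. FOXO factors are transcription factors of starvation and rest that PI3K and AKT signalling keep out of the nucleus. Of 25 genes in the list 10 were higher and 1 was lower, and the median was 0.86. The ubiquitin ligase gene Fbxo32, known as atrogin-1 from wasting muscle, read 7.36 in wild type and 9.81 on the array labelled Dap12-KO, and its 3 probe sets differed by between 1.64 and 2.45. The cyclin-like gene Ccng2 read 8.85 and 10.74, sestrin 1 (Sesn1) 10.80 and 12.30, and Klf2 was given above. The mitophagy kinase Pink1 differed by 1.39, Ypel3 by 1.44, and the death-promoting BCL2 relative Bcl2l11 by 1.20 (probe set median 0.96). Tsc22d3, known as GILZ, differed by 1.65, or 0.91 by the median over probe sets. The gene of FOXO3 itself (1.05) and the insulin receptor substrate Irs2 (1.19) were higher too. The 1 lower gene was Igf1r (−1.01, probe set median −0.58), the IGF1 receptor.

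Lists of p53 targets, autophagy and cell division were read beside the FOXO list. Of 25 p53 targets and cell cycle inhibitors 5 were higher and 2 lower, with a median of 0.49. Higher were Sesn1, which stands in both lists, Zmat3 (1.27), Phlda3 (1.25), Trp53inp1 (1.70, or 1.01 by the probe set median) and the retinoblastoma gene Rb1 (1.06, or 0.22). Plk3 (−1.47) and Btg2 (−1.22) were lower. The autophagy list had 2 of 24 higher and 0 lower, with a median of 0.28; these were Tecpr1 at 10.14 and 11.74 and the initiating kinase Ulk1 (1.08, probe set median 0.60). DNA replication genes did not pass 2-fold in any of 26 cases, but 23 were positive, with a median of 0.22. Of 19 mitosis genes 13 were positive, with a median of 0.23. Over all genes tested 52.6% were positive. Cdk1 (−1.08) and Tpx2 (−1.02, probe set median −0.59) were lower and Cenpa (1.29, probe set median 0.60) and the condensin subunit Ncapg2 (2.03) higher.

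Of 19 circadian clock genes 3 were higher and 0 lower, with a median of 0.19. Dbp, a factor whose level swings with the day, read 7.49 in wild type and 10.55 on the array labelled Dap12-KO, and its 2 probe sets differed by 3.06 and 2.43. The nuclear receptor Nr1d2 read 11.13 and 12.41 (probe set median 0.88), and Rora 7.31 and 8.78, the latter with a difference of only 0.31 by the median over its 9 probe sets. Among other members Nr1d1 differed by 0.77, Tef by 1.0 (just under 2-fold) and Per3 by 0.60. Arntl, Clock, Per1, Per2, Cry1 and Cry2 differed by −0.34, 0.06, −0.11, −0.60, −0.42 and 0.19. The time of day of harvest is not given in the sources used here.

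**Figure D3:**
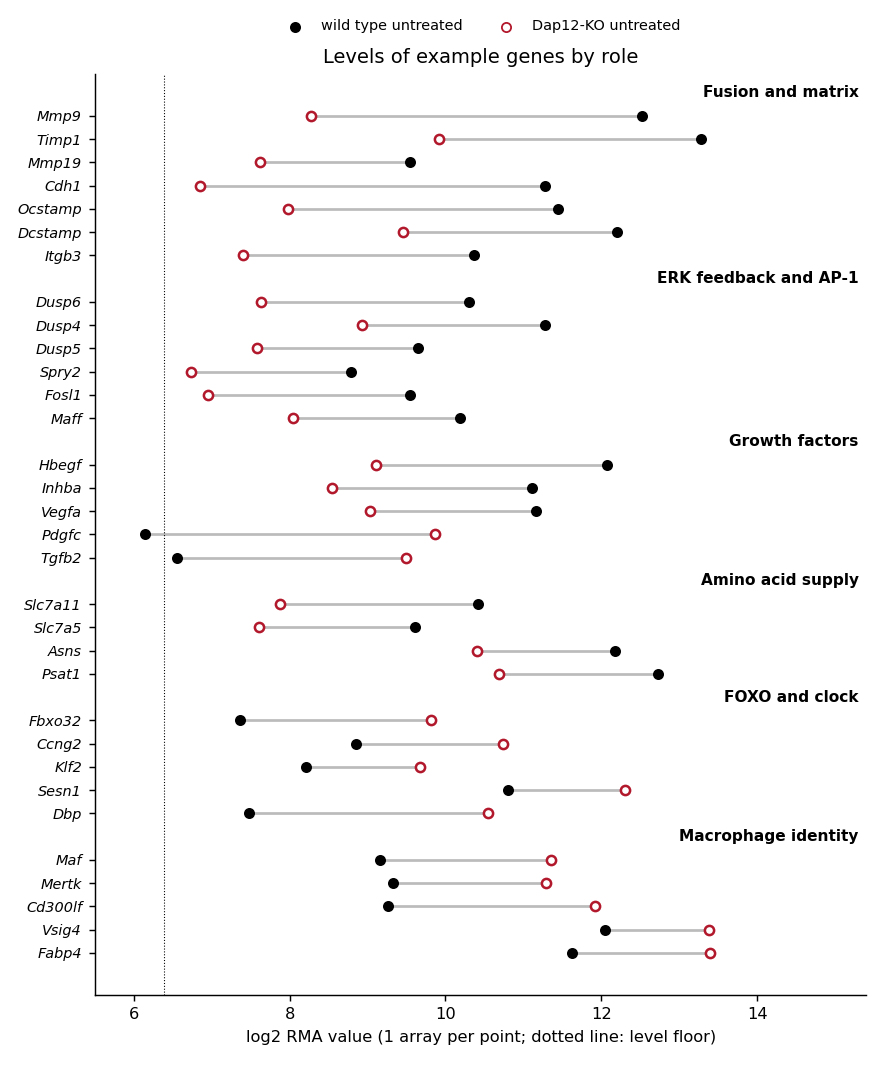
Log2 RMA values of example genes on the untreated wild type array (black) and the untreated array labelled Dap12-KO (open red), 1 array per point, grouped by role; the dotted line is the level floor of 6.39. Genes were picked as examples, and their full lists hold members on both sides of wild type. Among those shown, fusion, matrix, ERK feedback and amino acid supply genes have the open point to the left. The FOXO, clock and macrophage identity examples have it to the right, and growth factors lie on both sides.

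Of 28 genes of resident peritoneal macrophages 9 were higher and 2 lower, with a median of 0.67. Vsig4, a complement receptor of tissue macrophages, read 12.05 in wild type and 13.38 on the array labelled Dap12-KO. Prg4, which encodes lubricin, read 11.47 and 12.68, Padi4 6.95 and 8.54, and Ltbp1, which holds latent TGF-beta, 6.97 and 8.74 (probe set median 0.46). Tgfb2, F5, Cxcl13 and Alox15, given above, and Selp (1.08) were the others. The lower pair was Serpinb2 and Fam43a (−1.22). The defining factor of this cell type, Gata6, differed by 0.84, Icam2 by 0.80 and the phosphatidylserine receptor Timd4 by 0.23. In a bulk sample, a different number of cells of a type and a different amount of RNA per cell cannot be told apart.

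Among 28 genes shared by tissue macrophages 5 were higher and 0 lower, with a median of 0.45. Maf, a transcription factor of mature macrophages, read 9.16 and 11.35, and its 6 probe sets were all positive, between 0.27 and 2.63. Mertk, the receptor tyrosine kinase that clears dying cells, read 9.32 and 11.29. Hacd4 (1.64), Pla2g15 and Agmo (1.37) made up the 5. Among lineage factors more widely the median was −0.02, with 14 genes positive and 15 negative. Of these 29, 4 were higher and 1 lower. Besides Maf these were the ETS factor Fli1 (8.14 against 9.72), Id3 (7.81 against 9.22), Rxra (1.14 on the brightest probe set, −0.31 by their median) and, lower, Irf4 (−1.80, or −1.05). Spi1, which encodes the lineage factor PU.1, differed by −0.83.

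Cd300lf, which binds phosphatidylserine, read 9.27 and 11.92, and Havcr2, which encodes TIM-3, 7.66 and 9.44. With Mertk and Gas6 they were the 4 higher of 25 efferocytosis and scavenger genes, while Axl (10.61 against 8.48, or −1.07 by the probe set median) and the oxidized lipoprotein receptor Olr1 (−1.05) were lower. The related TAM receptors Mertk and Axl thus lay on opposite sides of wild type. Of 24 Fc receptor and complement genes 4 were higher, Fcgr4 (1.36), Vsig4, C3ar1 and Fcgrt (1.09), and 1 lower, Itgax. The complement components C1qa, C1qb and C1qc differed by 0.94, 0.43 and 0.67. The C-type lectin and Siglec list had 3 higher and 5 lower genes of 31. Lower beside Pilra and Clec5a were Clec4a2 (−1.40), Cd200r1 (−1.15) and Cd72 (−1.03), all inhibitory receptors. Higher beside Cd300lf were Clec4a3 (1.12) and Clec1b (1.5). Genes of alternative activation were lower in 10 of 31 and higher in 2, with a median of −0.31. Socs2 (8.63 against 6.34) and Flt1 (8.04 against 6.23), both below the floor on the array labelled Dap12-KO, were lowest, and Arg1 (11.31 against 12.45) and Alox15 higher. Socs2 differed by −0.83 by the median over its probe sets.

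Lysosomal genes showed small positive differences. Of 37 lysosomal hydrolases 34 were positive (52.6% of all genes were), 3 were higher by 2-fold and 0 lower, with a median of 0.36. Sgsh, a heparan sulfatase gene, read 7.02 and 9.50, or a difference of 1.36 by the median over probe sets against 2.48, Ctsf differed by 1.09 (or 0.32) and Arsg by 1.07. The sialic acid exporter Slc17a5 (1.46) was the 1 higher of 28 proton pump and lysosomal membrane genes, which had a median of 0.22.

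Lipid genes included some of the larger single differences. Ch25h, which makes 25-hydroxycholesterol, read 9.48 in wild type and 6.42 on the array labelled Dap12-KO, next to the floor, and the desaturase Scd2 read 12.63 and 10.90. Higher were the sterol hydroxylase Cyp27a1 (7.76 against 9.80, or a difference of 1.0 by the median over probe sets), the cholesteryl ester hydrolase Nceh1 (1.18) and Mylip (1.14), which targets the LDL receptor. The fatty acid-binding protein Fabp4 read 11.62 and 13.39, with 4 probe sets between 1.04 and 3.20. Carnitine palmitoyltransferase Cpt1a read 9.90 and 11.33 and the thiolase Acaa2 differed by 1.11 (probe set median 0.90), and these 3 were the higher genes of 21 PPAR targets and fatty acid oxidation genes. Lpin1, a phosphatidate phosphatase, read 7.52 and 9.72, Pnpla7, a lysophospholipase, 9.10 and 11.36, and xanthine dehydrogenase (Xdh) 9.76 and 12.09. Of 19 cholesterol synthesis genes Hsd17b7 (−1.32) and Cyp51 (−1.20) were lower and 0 higher. Genes that mark phagocytes carrying TREM2, whose signal runs through DAP12, were near level, with 3 lower (Ch25h, Axl, Itgax) and 1 higher (Fabp4) of 27. Apoe, Gpnmb and Lpl differed by 0.05, 0.18 and −0.15.

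Several large housekeeping groups were level. No gene passed 2-fold among 27 ribosomal protein genes (median −0.10), 37 respiratory chain and ATP synthase genes (−0.15), 22 ER stress genes (−0.12) or 15 MHC class I processing genes (0.03). Of 17 genes of MHC class II presentation only the costimulatory gene Cd86 (−1.20) did, with a median of 0.13.

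Markers of other cell types were read on both untreated arrays. B cell markers had a summed linear signal of 2858 on the wild type array and 5638 on the array labelled Dap12-KO, a ratio of 1.97. Of 12 measured, 7 lay above the floor on both arrays and 4 were higher by 2-fold, Bank1 (1.45), Ms4a1 (1.13), Fcmr (1.03) and Ighm, which differed by 1.24 on its brightest probe set and −0.18 by the median over its probe sets. The B cell factors Pax5 and Ebf1 and the surface genes Fcer2a and Cr2 lay below the floor on both. Dendritic cell markers had a ratio of 0.60, in which Ccl22 was the 1 lower gene. Of 9 mesothelium and fibroblast markers tested, 6 were positive (52.6% of all genes were) and 3 lower, with a median of 0.08 and a summed ratio of 0.81. The 3 were Col3a1 (−1.30, probe set median −0.90), Col1a2 (−1.26, −0.60) and Dcn (−1.08, −0.60), while the mesothelial genes Msln, Upk3b and Wt1 lay below the floor on both arrays. Neutrophil markers had a ratio of 0.73, with S100a8 at 10.09 and 9.52 and Mpo, Elane and Ltf below the floor on both. Ratios were 0.77 for T and NK cells, 0.96 for eosinophils, 1.05 for mast cells and basophils and 1.02 for red cells and platelets. Such sums can hide members that differ. Of 5 mast cell and basophil markers tested 4 were positive (52.6% of all genes were), with a median of 0.86. Cma1 (1.34) was higher and Gata2 (−1.56, probe set median −0.975) lower. Ppbp (−1.91) was the 1 lower gene of red cells and platelets, where Pf4, at 13.38 in wild type, differed by 0.04. Lat (−1.44) was the 1 lower gene of T and NK cells. The part of other cells in the gene groups above was not tested.

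Genes beside Tyrobp on chromosome 7 were examined as the flanks of the targeted gene. Of the 50 nearest genes tested, 25 on each side, 3 were higher and 2 lower, or 10%, against 6.52% of all genes in either direction and 5.06% on chromosome 7. They were Zfp30 (1.62, probe set median 0.99), Gm38983 (1.42), Wdr62 (1.09, probe set median 0.64), Nfkbid (−1.66) and Dmkn (−2.22), chosen by name after their values were seen. Zfp30 (5.77) and Gm38983 (6.13) read below the floor in wild type, and Dmkn (5.61) on the array labelled Dap12-KO. The sizes of those differences rest partly on background readings. The median of the 50 was −0.11. Across chromosomes the share past 2-fold ran from 4.42% on chromosome 17 to 9.51% on chromosome 14.

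Different probe sets of a gene are separate readings of the same RNA. They repeat the array and not the animal. Of 185 higher genes with at least 2 probe sets above the floor, 169 (91.4%) had all of them on the same side of 0, and 65 had every one past 2-fold. Of 234 lower genes these were 208 (88.9%) and 88. For comparison, 65.3% of all 5603 such genes had their probe sets on 1 side. The higher and lower genes were called by 1 of the probe sets counted here, while most genes differ little. A larger share among called genes is thus partly built in, and these shares are a description only. No gene had probe sets past 2-fold in both directions.

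The same genotype contrast can be read a second time in the arrays with IL-4, which share no array with the untreated pair. The IL-4 array labelled Dap12-KO was narrower, and the median gene differed by −0.39 with IL-4 as deposited and by 0.13 after cyclic loess, a scaling that puts the arrays on a common level trend. After it, 12.6% of all genes were 2-fold higher and 5.33% lower with IL-4. Of the 398 genes higher untreated, 131 (32.9%) were 2-fold higher with IL-4 and 7 were 2-fold lower. Of the 435 lower untreated, 162 (37.2%) were 2-fold lower and 2 higher. As deposited these counts were 48 and 23 for the higher genes and 329 and 1 for the lower genes. Sign was shared by 82.4% of the higher genes, where 59.0% of all genes had that sign, and by 94.0% of the lower genes, where 41.0% did. Their medians after cyclic loess were 0.66 and −0.76 with IL-4, against 1.28 and −1.34 untreated as deposited. Both contrasts correlated at r = 0.487 across genes after cyclic loess, which are not independent replicates.

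For single lists the repeat with IL-4 depended on the scaling, so values are given both ways, and differences between the treatments were not tested. The resident macrophage list, with a median of 0.67 untreated, had 0.11 with IL-4 as deposited and 0.71 after cyclic loess. Within it Tgfb2 differed by 1.77 and 2.10, and Vsig4 by 0.68 and 1.23, as deposited and after cyclic loess. The FOXO list, at 0.86 untreated, had −0.41 and 0.11 with IL-4, in the same order, below its untreated value by either scaling. Among its genes Fbxo32 differed by 0.51 and 1.04 and Ccng2 by −0.42 and 0.30. Outside it, Maf differed by −0.11 and 0.62, and Dbp by 0.09 and 0.66.

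The ERK feedback list, at −0.73 untreated, had −1.12 with IL-4 as deposited and −0.47 after cyclic loess, and Dusp6 differed by −4.0 and −3.31. The amino acid list, at −0.53 untreated, had −0.79 and −0.19. Some single genes were lower in both treatments by either scaling. Mmp9 differed by −4.01 and −3.30 with IL-4, Tmem178 by −3.68 and −2.95, and G530011O06Rik, an uncharacterised transcript, by −5.75 and −5.02. Ch25h was reversed, from −3.06 untreated to 0.96 with IL-4 as deposited and 1.69 after cyclic loess, where wild type read 9.80 and the array labelled Dap12-KO 10.77.

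**Figure D4:**
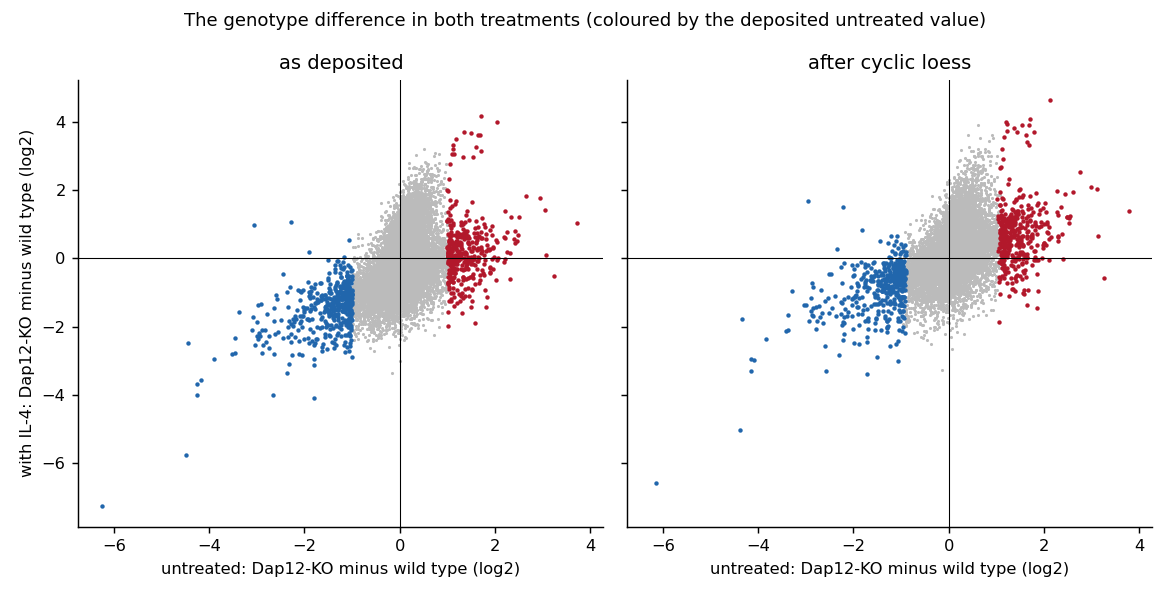
Log2 difference of each gene between the arrays labelled Dap12-KO and wild type without treatment (horizontal) and with IL-4 (vertical), as deposited (left) and after cyclic loess (right). Red and blue mark genes at 2-fold or more higher or lower untreated as deposited; the blue genes lie mostly below 0 in both panels, and the red genes move from around 0 as deposited (median 0.14) to mostly above it after cyclic loess (median 0.66).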

How the data were processed

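Total RNA of 4 macrophage samples was made into biotin-labelled cRNA with 2 rounds of amplification, per the labels' protocols, and hybridised to 1 Affymetrix array each. The deposited values are log2 and come from RMA (version not stated), per the submitters' processing notes. RMA sets probe intensities of all arrays on one distribution before it summarises them, so the sizes of differences depend on it. Of 45101 probe sets 34945 named 1 gene in GEO's platform annotation, 932 several and 9160 none, and 64 were controls; only the first entered. Symbols were updated through Entrez identifiers to the RefSeq table of GRCm38.p6 for 34741. Each of 18193 genes was read by its brightest probe set (mean over the 4 arrays) and entered at a highest value of 6.39 or more. The samples are single arrays of their groups, grouped by title; differences and 2-fold counts were computed with no test, in Python 3.11.15 (numpy 2.4.6, pandas 2.3.3, matplotlib 3.10.9), and checked on simulated data with 200 changed genes. Cyclic loess (3 iterations) and quantile normalization used limma 3.58.1 in R 4.3.3.

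The members, the 63 gene lists and the rules were chosen with earlier results of these data known; 1 list is not reported here. Named by rule were Tyrobp; the 20 highest and 20 lowest genes that also passed 2-fold by the probe set median and by cyclic loess, and the 12 at each end above the floor on both untreated arrays; up to 8 members of each list past 2-fold, or those around the median where none passed; and named genes past 2-fold in opposite directions in both treatments. Other names complete a count or list and were chosen after their values were seen. Motifs were searched in 250 upstream bases of the promoter table, which covers 10316 of the 12767 genes. Alternatives were the scalings, the probe set choice, the floor, and a 3-fold threshold.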

Additional observations from a re-analysis of the deposited data

Results flagged for a closer look

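Named genes were compared for opposite directions in both treatments. In 4 of them the array labelled Dap12-KO was 2-fold or more higher than wild type untreated and 2-fold or more lower with IL-4, as deposited. The difference between the treatments was not tested, since each group is 1 array. The ETS factor Fli1 differed by 1.58 untreated and −1.90 with IL-4, where it read 6.01, below the level floor. Egr3 differed by 1.13 and −1.39, Ndrg1, a stress-responsive gene, by 1.45 and −1.11, and Mylip by 1.14 and −1.12. By the median over probe sets the untreated values of Egr3 and Ndrg1 were 0.60 and 0.86. After cyclic loess Fli1 alone among these 4 stayed past 2-fold with IL-4, at −1.36, and Egr3, Ndrg1 and Mylip read −0.72, −0.38 and −0.39. Among all genes tested 24 were past 2-fold in opposite directions as deposited, 23 of them higher untreated.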

How the results depend on the processing

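Of 435 lower and 398 higher genes, all alternative scalings, probe set choices per gene and floors kept the counts within 1.5 times. A 3-fold threshold left 91 higher and 138 lower genes, and with every probe set counted on its own 611 were higher and 826 lower. Of 1894 values of named genes under the alternatives 1858 kept within 1.5-fold, and 33 moved further and 3 reversed, all under the median over probe sets. The reversed values were Ighm −0.18, Pik3cd −0.16 and Rxra −0.31. Under that median 5 named genes (Col1a2, Col3a1, Hpgd, Il1rap and Ltbp1) lay below the floor and have no value counted here. Of 503 list medians 496 kept within the same range, and the 7 that moved were the cytokine list and cell marker lists under another floor. The count of genes past 2-fold the same way with IL-4 depended on the scaling, which was added after seeing the data. It was 48 of the higher genes as deposited, 131 after cyclic loess and 112 after quantile normalization, and 329, 162 and 191 of the lower genes. The narrower Dap12-KO array with IL-4 enters each of these, and the cause was not tested. No paired analysis was possible because the labels give no replicate numbers and each group has 1 array. A signal near the floor of 6.39 limits the size that can be read, and no leave-out check exists with 1 array a side.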

Other observations

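With IL-4, 169 genes were 4-fold or more higher on the array labelled Dap12-KO, as deposited. Of these 168 (99.4%) were positive untreated, where 52.6% of all genes tested were, and their untreated median was 0.52. Entry and the choice of probe set use all arrays, so such genes can enter through the very IL-4 array on which they are high. Adam6b, for example, read 4.50 and 6.18 untreated and 4.73 in wild type with IL-4, all below the floor. The share is therefore given as a description only. A set of 18 of the 169 was taken by limits chosen after the values were seen. Each was 2-fold or more higher untreated on the array labelled Dap12-KO and more than 2 log2 units higher with IL-4, with medians of 1.34 and 3.23. Their IL-4 differences ran from 2.02 to 4.16 as deposited and from 2.65 to 4.63 after cyclic loess. Several are best known from other tissues. Ttn, which encodes the muscle protein titin, read 5.09 in wild type and 6.73 on the array labelled Dap12-KO untreated, and 5.12 and 8.71 with IL-4. Adarb1, an RNA-editing deaminase, read 6.65 and 8.70 untreated and 7.11 and 11.10 with IL-4. The semaphorin Sema3f read 11.04 and 12.73 untreated and 11.24 and 14.39 with IL-4. The kallikrein Klk1b5, the skin gene Lce1d and the immunoglobulin gene Igha differed by 1.70, 1.5 and 1.17 untreated. In 7 of the 18 the untreated wild type value lay below the floor. Of 9 with more than 1 probe set above the floor, 6 had a single one past 4-fold with IL-4. By the median over probe sets the untreated difference was negative in 5 of the 18, among them Adarb1 (−0.20), and was at 2-fold in 4. For Sema3f it was 0.23 and for Ttn 0.34. The cause was not tested.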
